A study of Mus musculus with 4 samples.

Results

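The 7 melanocyte pigment genes Dct, Pmel, Mlana, Tyrp1, Tyr, Mitf and Slc45a2 were followed in single cells of whole mouse noses at embryonic day 14.5. They are 7 of the 32285 genes in the deposited count matrices and were found by their symbols. Of 13739 cells kept (500 or more detected genes, no more than 10% mitochondrial UMIs), 53 held UMIs of at least 2 of the 7 genes. UMIs are random barcodes that let each captured mRNA molecule be counted once. Because the cells were chosen by these UMIs, the pigment gene levels inside them are given as a description and are not tested.

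The 4 libraries were 2 controls, titled WT, and 2 mutants, titled Sox10Cre/Yap/Taz cKO. The mutants carry the transgene Tg(Sox10-cre)1Wdr, in which Sox10 sequences drive Cre recombinase, together with floxed Yap and Taz on C57Bl/6J. The series design gives them as Sox10cre with yap flox/WT and taz flox/flox, so that 1 Yap allele stays intact. For the controls the descriptions disagree: the sample labels name C57Bl/6J, whereas the design text names yap flox/flox and taz flox/flox with no Cre. The groups are therefore called control and mutant by their titles. The labels' protocols speak of 2 noses of each kind but do not tie a library to an animal, so p-values measure the spread between these libraries. More than 1 sequencing provider is named without saying which library went where, so provider and genotype cannot be told apart. The series title asks how loss of YAP and TAZ in the neural crest affects olfactory ensheathing cells, olfactory and vomeronasal neurons and the migration of GnRH-1 neurons.

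Melanocytes are neural crest cells that make melanin inside specialised organelles, the melanosomes, and pass them to skin and hair. Their precursors depend on the transcription factors Sox10 and Mitf, and Mitf turns on the pigment enzymes. The retinal pigment epithelium makes melanin with the same enzymes but comes from the neural tube, where Otx2 rather than Sox10 works with Mitf. A pigment cell that carries Sox10 and one that carries Otx2 can thus be separated, and Sox10 sequences also drive the Cre of the mutants. Tyr (tyrosinase) catalyses the first step of melanin synthesis, and Tyrp1 and Dct act on later intermediates. Pmel forms the fibrils on which melanin is laid down, Mlana is a melanosome protein that works with Pmel, and Slc45a2 is a transporter needed for melanosome pH. On GRCm38 (GENCODE M21), Dct lies at chr14:118012790-118052244, Pmel at chr10:128704195-128720238, Mlana at chr19:29697824-29708634 and Tyrp1 at chr4:80834123-80851719. Tyr lies at chr7:87424771-87493512, Mitf at chr6:97807052-98021349 and Slc45a2 at chr15:11000721-11029233.

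The promoters of the 3 tyrosinase family genes are shown because the pigment enzymes are known targets of Mitf. Mitf binds the E-box CATGTG, the core of the M-box. RefSeq windows on GRCm38.p6, from 250 bases before to 50 bases after the start of transcription, were in the table used here for 4 of the 7 genes: Dct, Tyrp1, Tyr and Mitf. Each sequence below is 5′ to 3′ on the gene's own strand, with CATGTG, or CACATG where it lies on the other strand, in capitals. The Dct window is chr14:118052197-118052496 on the minus strand, that of Tyrp1 is chr4:80833963-80834262 on the plus strand, and that of Tyr is chr7:87493463-87493762 on the minus strand.
Dct: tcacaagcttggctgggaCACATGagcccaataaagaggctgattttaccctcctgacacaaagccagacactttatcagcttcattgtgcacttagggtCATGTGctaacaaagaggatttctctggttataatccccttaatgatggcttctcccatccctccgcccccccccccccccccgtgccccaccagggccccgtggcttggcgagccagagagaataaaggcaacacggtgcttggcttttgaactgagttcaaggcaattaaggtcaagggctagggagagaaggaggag
Tyrp1: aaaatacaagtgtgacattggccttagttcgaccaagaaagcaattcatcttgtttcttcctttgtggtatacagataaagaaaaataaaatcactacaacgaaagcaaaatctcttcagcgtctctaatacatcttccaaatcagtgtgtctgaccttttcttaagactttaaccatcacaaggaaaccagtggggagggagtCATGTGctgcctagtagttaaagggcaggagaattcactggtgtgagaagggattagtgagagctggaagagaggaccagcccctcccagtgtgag
Tyr: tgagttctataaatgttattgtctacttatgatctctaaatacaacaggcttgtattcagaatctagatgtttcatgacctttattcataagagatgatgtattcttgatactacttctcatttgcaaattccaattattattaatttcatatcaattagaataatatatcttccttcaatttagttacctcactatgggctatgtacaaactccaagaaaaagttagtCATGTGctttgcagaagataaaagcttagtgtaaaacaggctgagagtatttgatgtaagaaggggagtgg
CATGTG on either strand was present in 4650 of all 32851 windows of this length (14.2%). All 3 tyrosinase family windows held it, and none of the 3 windows of Mitf did. The first base of the match lay 46 bases before the start in Tyrp1 and 21 bases before it in Tyr. Dct had a match 150 bases before its start and another, on the other strand, 232 bases before it. In each of the 3 genes a match stood inside the same 10 letters, GTCATGTGCT, which 61 of 32851 windows held (0.186%). That longer string was picked after the sequences were seen. These matches describe letters, not binding.

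Most cells with a pigment gene had only Mitf. A single pigment gene was found in 1511 cells, and in 1359 of them (89.9%) that gene was Mitf. In contrast, the cells at the upper end held most of the genes together. Cells with exactly 2, 3, 4, 5, 6 and 7 of the genes numbered 7, 0, 1, 5, 5 and 0 in control 1 and 4, 1, 1, 5, 4 and 1 in control 2. The same counts were 8, 0, 0, 2, 1 and 0 in mutant 1 and 3, 1, 0, 2, 2 and 0 in mutant 2. In all 4 libraries, very few cells lay between 2 genes and 5.

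The 22 cells with exactly 2 pigment genes, just inside the rule, differed widely from the 31 cells with at least 3. Their summed pigment UMIs ranged from 2 to 6 with a median of 2, and 12 cells had exactly 2. Mitf was among the 2 genes in 18 of them and Pmel in 13. They included 11 mesenchyme-like and 5 keratinocyte-like cells and no glia-like cell, with total depths from 2961 to 107638 UMIs. Of all 13739 kept cells, 9482 were mesenchyme-like, 918 keratinocyte-like and only 150 glia-like, so the lack of a glia-like cell among 22 says little. The 31 cells with at least 3 genes held 10 to 363 pigment UMIs, with a median of 63, at total depths from 1174 to 23193 UMIs. Just outside the rule, the cells with 1 pigment gene held at most 3 UMIs of Dct, 2 of Pmel and 1 of Mlana, Tyr or Slc45a2, while Mitf reached 15. The plot of pigment UMIs per cell shows this gap.

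**Figure D1:**
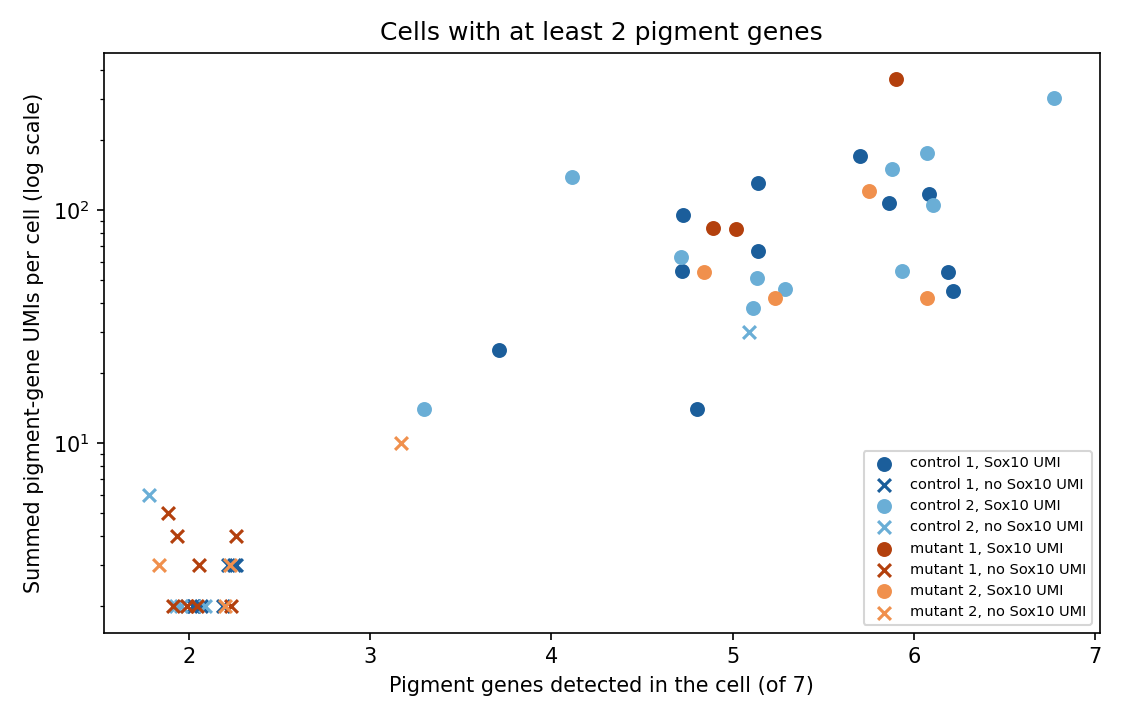
Each point is 1 of the 53 cells with at least 2 pigment genes, plotted by the number of pigment genes detected (horizontal, spread slightly at random so that points can be told apart) and the summed pigment UMIs on a log scale (vertical). Colour gives the library, dots are cells with a Sox10 UMI and crosses cells without. The 22 cells with exactly 2 genes lie between 2 and 6 pigment UMIs, all as crosses, and the 31 cells with at least 3 lie between 10 and 363, with 29 as dots.

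Among the 31 cells, Pmel, Tyr and Dct were each found in nearly all. The cells were chosen for holding at least 3 pigment genes, so finding several of these genes together follows from that choice. Pmel was detected in 31, Tyr in 30, Dct in 29, Mitf in 26, Mlana in 25 and Slc45a2 in 20. Tyrp1 was detected in 2 cells with 1 UMI each. Single cells held up to 191 UMIs of Dct, 86 of Pmel, 39 of Tyr, 24 of Mlana, 20 of Mitf and 11 of Slc45a2. The medians over the 31 cells were 35 UMIs of Dct, 16 of Pmel, 9 of Tyr, 5 of Mlana, 3 of Mitf and 1 of Slc45a2. At this stage the nose thus held cells with abundant Dct, Pmel and Tyr mRNA and almost no detectable Tyrp1 mRNA.

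Sox10, the neural crest factor, was carried by 29 of the 31 cells (93.5%, exact Clopper-Pearson 95% interval 78.6 to 99.2), with up to 10 UMIs in a cell. By library it was found in 11 of 11, 11 of 12, 3 of 3 and 4 of 5 cells for control 1, control 2, mutant 1 and mutant 2. Otx2 was found in 0 of the 31, which by the limit of 3 counts allows a share of up to 9.68%. Of the cells with exactly 2 genes, Sox10 was found in 0 of 22 (up to 13.6% by the same limit) and Otx2 in 4 of 22 (18.2%). These 4 lay in the keratinocyte-like and nasal epithelium-like classes and unnamed clusters 3 and 28, at 37334, 70441, 21273 and 10040 UMIs. In those classes 4.25%, 35.8%, 63.7% and 78.0% of all cells carried Otx2, in the same order. Whether class or depth accounts for these Otx2 UMIs was not tested. Intervals and limits cover counting error only.

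Over all cells with at least 2 pigment genes, a Sox10 UMI was present in 61.1% of control 1, 68.8% of control 2, 27.3% of mutant 1 and 50% of mutant 2 cells. The groups did not overlap, and the difference of -26.3 percentage points gave an exact two-sided permutation p of 0.33, the smallest that 2 against 2 libraries can give. The difference was -5.83 among cells with at least 3 genes (exact permutation p = 1.00). In all cells with fewer than 2 pigment genes, Sox10 was detected in 1.50%, 1.51%, 1.64% and 1.17% in the same order. Macrophage-like cells, which should lack it, held a Sox10 UMI in 1 of 278 cells (0.360%), at a median depth of 8857 UMIs. That 1 cell held 9 Sox10 UMIs, against at most 10 in a cell with at least 2 pigment genes, so it was no stray single molecule.

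An Otx2 UMI was present in 2 of 18, 1 of 16, 1 of 11 and 0 of 8 cells with at least 2 pigment genes. The shares of 11.1%, 6.25%, 9.09% and 0% overlapped between groups (difference -4.14 percentage points, exact permutation p = 0.67). Elsewhere Otx2 was detected in 3.23%, 1.59%, 3.49% and 2.84% of cells and in 0 of 278 macrophage-like cells, which allows up to 1.08%. Otx2 had 29 UMIs in the cells with at least 2 pigment genes, of 2045 in all. Of all Otx2 UMIs 69.6% were in unnamed cluster 3, where 63.7% of cells carried the gene, and 17.9% in nasal epithelium-like cells. The glia-like cluster held none.

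Genes of the melanocyte lineage beyond the 7 were plentiful in the 31 cells. Of 20 listed genes, 19 were detected, and 10 were in at least 50% of the cells. Slc24a5, a melanosome ion exchanger, was found in 30 cells, and Kit, the receptor that melanoblasts need to survive and migrate, in 28. Pax3, a transcription factor upstream of Mitf, and Gpnmb, a melanosome protein related to Pmel, were each found in 28. Ednrb, the endothelin receptor of melanoblasts, and the ion channel Mcoln3 were each found in 26. Slc7a11, a cystine transporter used for pheomelanin, was found in none. The level of Kit was 542 CPM (UMIs of the gene per 1000000 UMIs) in the 31 cells against 15.4 CPM in all other cells, and that of Gpnmb was 452 against 1.14. Pax3 stood at 511 against 117 and Slc24a5 at 704 against 58.1, and each was also common outside them, in 32.4% and 32.3% of all other cells.

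Markers of the retinal pigment epithelium and eye were rare in these cells and in others, where none was found in more than 3.73% of cells. By level Ttr, on this list, stood at 65.6 CPM in the other cells, although 1.41% of them held it. In the 31 cells only 2 of 14 listed genes were detected, with 4 UMIs in all. These were Rdh5, a retinol dehydrogenase, in 2 cells and Tfec, a relative of Mitf, in 1. Rdh5 stood at 9.35 CPM there against 4.64 CPM in all other cells, and Tfec at 3.12 against 1.27. Rpe65, the visual cycle isomerase, had no UMI in any kept cell. Among 12 glia and Schwann cell genes, 6 were detected, among them Cdh19 in 17, Foxd3 in 13, Fabp7 in 11, Cdh6 in 4 and Ngfr in 1 of the 31 cells. Mbp, S100b and Sox2 were among those at 0. The levels of the glia genes went both ways. Cdh19 stood at 143 CPM in the 31 cells against 3.39 CPM in all others, and Foxd3 at 53.0 against 2.61. Fabp7, a marker of ensheathing glia, stood at 53.0 CPM against 118 CPM, Cdh6 at 34.3 against 66.2 and Ngfr at 3.12 against 9.01.

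The pigment cells sat mostly in 1 small glia-like cluster, although the 7 genes were left out of the clustering. It held 26 of the 31, with 2 more in macrophage-like clusters and 1 each in a keratinocyte-like, a mural-like and an unnamed cluster. Fabp7, Dct, Pmel, Ptgds and Sox10 were among the genes that led that cluster, so it joined glia and pigment cells. High doublet scores were found in 5 of the 31 cells: 1 in control 1, 1 in control 2, 2 of the 3 in mutant 1, and 1 in mutant 2. Over all kept cells, 149 of 4075, 56 of 2474, 87 of 2995 and 163 of 4195 had such scores in the same order, a smaller share.

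By likeness, 2 sets of genes followed the pigment genes, both given as descriptions with no test. Inside the 53 cells, with libraries weighted equally, the largest log2 ratio of CPM + 10 over all other cells was that of Ptgds, a prostaglandin synthase, at 6.07, and it was found in all 31 cells with at least 3 genes. Fmn1 followed at 4.23 and Gpnmb at 4.20, then Syngr1 at 3.57 and Syt4, a vesicle protein, at 3.51. Mcoln3 (3.50), Kit (3.20), Ednrb (2.93), Sox10 (2.92) and Trpm1 (2.90), of which Trpm1 is a melanocyte ion channel, were also among the 15 highest. Across the 31 clusters, whose means share library and depth, Iqch had the highest Pearson r with the summed pigment genes, at 0.810, and Rasgef1c was next at 0.807. Fabp7 (0.777) and Ptgds (0.766) were in the same 10. The second measure rests on the joint cluster of glia and pigment cells.

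The share of cells with at least 2 pigment genes was lower in the mutant libraries. It was 0.442% in control 1 (18 of 4075 cells, exact 95% interval 0.262 to 0.697) and 0.647% in control 2 (16 of 2474, 0.370 to 1.05). It was 0.367% in mutant 1 (11 of 2995, 0.183 to 0.656) and 0.191% in mutant 2 (8 of 4195, 0.0824 to 0.375). The groups did not overlap, but mutant 1 lay close to control 1 and their intervals overlapped widely. The means were 0.544% ± 0.145 (SD, n = 2) in controls and 0.279% ± 0.125 (SD, n = 2) in mutants, a ratio of 1.95 and a difference of -0.265 percentage points with an exact two-sided permutation p of 0.33, the smallest possible.

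Among cells rich in pigment genes the gap was -0.268 percentage points, close to that of the whole rule. With at least 3 genes the shares were 0.270% (11 cells, 0.135 to 0.482) and 0.485% (12 cells, 0.251 to 0.846) in controls. They were 0.10% (3 cells, 0.0207 to 0.292) and 0.119% (5 cells, 0.0387 to 0.278) in mutants. The mean of 0.377% ± 0.152 (SD, n = 2) in controls was 3.44 times the 0.110% ± 0.0135 (SD, n = 2) in mutants, again with an exact permutation p of 0.33. Cells with exactly 2 genes made up 0.172%, 0.162%, 0.267% and 0.0715%, with no separation of the groups (exact permutation p = 1.00). With cells of high doublet score removed, a choice made after seeing the data for this count, the shares with at least 3 genes were 0.255%, 0.455%, 0.0344% and 0.0992%, and mutant 1 then rested on 1 cell.

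**Figure D2:**
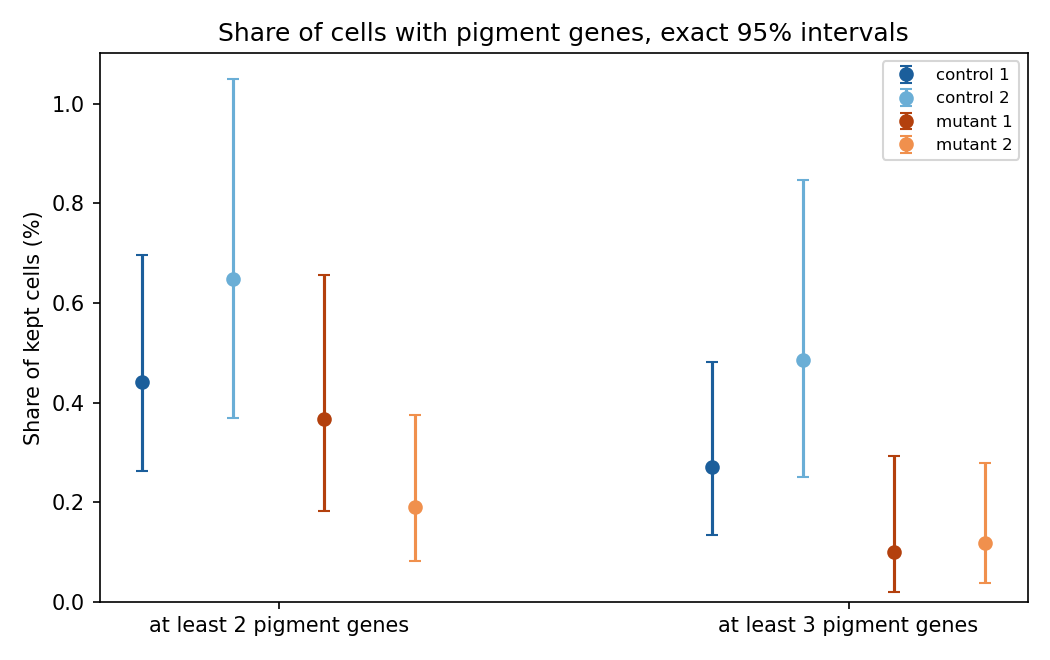
Points give the share of kept cells (percent) with at least 2 and at least 3 pigment genes in each library, and bars the exact 95% binomial interval, which covers counting error only. Both mutant libraries lie below both controls for each count, at 0.10% and 0.119% against 0.270% and 0.485% for at least 3 genes, with overlapping intervals.

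The same order was seen among Sox10-carrying cells, a denominator chosen after seeing the data. Of 72, 48, 52 and 53 cells with a Sox10 UMI, 11, 11, 3 and 4 had at least 3 pigment genes. This was 15.3% (7.88 to 25.7) and 22.9% (12.0 to 37.3) in controls against 5.77% (1.21 to 15.9) and 7.55% (2.09 to 18.2) in mutants. The means were 19.1% ± 5.40 and 6.66% ± 1.26 (SD, n = 2 each; exact permutation p = 0.33). Sox10-carrying cells without a set of at least 3 pigment genes numbered 61, 37, 49 and 49. In the mutants Sox10 sequences of a transgene drive Cre, so the gene that picks these cells is tied to the genotype.

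The targeted genes were checked over all kept cells. The level of Yap1 was 65.0 and 65.2 CPM in controls against 56.4 and 56.0 CPM in mutants (log2 change -0.25 ± 0.08, SE, edgeR adjusted p = 0.909). Wwtr1, the gene of TAZ, stood at 118 and 145 CPM against 123 and 132 CPM (edgeR adjusted p = 0.935). In the 31 pigment cells Yap1 had 8, 6, 1 and 4 UMIs and Wwtr1 10, 10, 4 and 3. These counts come from transcript ends, which the labels do not place inside or outside the deleted parts, and Sox10 sequences limit where Cre is made, so they do not check the deletion.

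Summed over all kept cells, 5 of the 6 pigment genes that could be tested were lower in both mutant libraries than in both controls, while Mitf was not. Dct had 434 and 602 UMIs in controls (12.3 and 30.5 CPM) and 271 and 131 in mutants (9.31 and 4.87 CPM), with control 2 far above the rest. The controls held 2.80 and 8.75 CPM of Tyr and the mutants 1.72 and 1.04 CPM, again with control 2 highest. Pmel stood at 7.19 and 13.6 CPM against 6.15 and 3.72 CPM. The mutant 1 value of Pmel was close to that of control 1.

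The controls held 2.60 and 3.84 CPM of Mlana and the mutants 1.24 and 1.15 CPM, with no overlap between the groups. Slc45a2 stood at 0.538 and 1.47 CPM against 0.515 and 0.298 CPM, from 8 to 29 UMIs a library. Tyrp1 had 1, 2, 0 and 1 UMIs and was too low to test. For comparison, 13.0% of the 18080 genes tested were lower in both mutant libraries, and 24.9% were higher in both.

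None of these differences passed the test across all genes. In edgeR's quasi-likelihood test the log2 change (mutant against control) of Tyr was -2.08 ± 0.61 (SE), that of Dct -1.62 ± 0.51, that of Mlana -1.46 ± 0.31 and that of Pmel -1.10 ± 0.39. Their unadjusted p-values were 0.0155, 0.0206, 0.00388 and 0.0317, and the edgeR adjusted p was 0.909 for each. Slc45a2 had a log2 change of -1.26 ± 0.63 (edgeR adjusted p = 0.909). No gene of 18080 was called (0%), with 883 at an unadjusted p under 0.05. DESeq2 called 30 of the 22430 genes it tested. Among the members, 4 of 6 were lower with an unadjusted p under 0.05, against 2.67% of all genes. These 4 are not separate results, since 87.1% to 97.4% of the UMIs of each lay in the same 31 cells. The members were also chosen with earlier results of these data known, so the 2 shares are not a fair comparison. The median log2 change of the 6 was -1.36, against 0.0012 over all genes tested.

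Single libraries and the doublet filter moved the sizes. Without control 2 the log2 changes were -0.81 for Dct, -1.04 for Tyr, -0.57 for Pmel and -0.42 for Slc45a2. Without control 1 they were -2.15 for Dct, -2.71 for Tyr and -1.73 for Mlana, with edgeR adjusted p of 0.0359, 0.0198 and 0.0484, and 410 genes were called. With cells of high doublet score removed they were -2.81 for Dct, -3.12 for Tyr, -2.36 for Mlana, -1.84 for Pmel and -2.27 for Slc45a2, none of them called. The range of edgeR and DESeq2 adjusted p over all alternatives was 0.0359 to 1.00 for Dct, 0.0198 to 1.00 for Tyr and 0.0484 to 1.00 for Mlana.

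**Figure D3:**
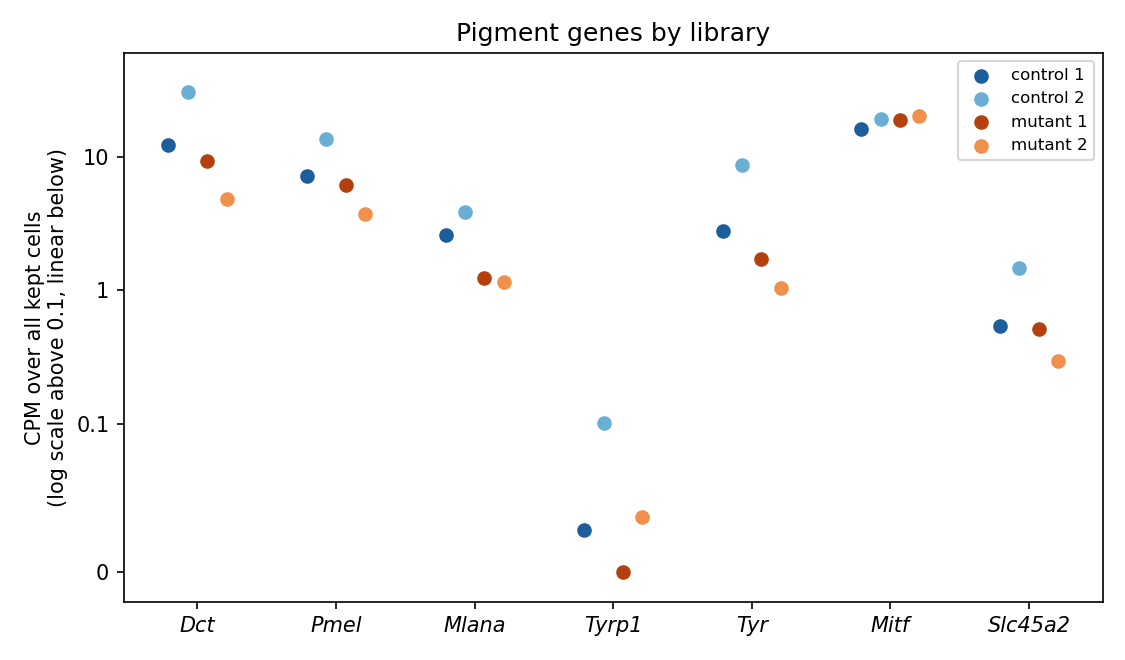
Points give the level of each pigment gene in each library over all kept cells, in CPM on an axis that is logarithmic above 0.1 and linear below. Dct, Pmel, Mlana, Tyr and Slc45a2 lie lower in both mutant libraries, with Dct at 9.31 and 4.87 CPM against 12.3 and 30.5 CPM in controls, whereas the 4 values of Mitf lie between 16.2 and 20.4 CPM.

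Mitf stood at 16.2 and 19.2 CPM in controls against 18.8 and 20.4 CPM in mutants, and the groups overlapped (log2 change 0.11 ± 0.13, SE, edgeR adjusted p = 0.925). Only 6.59% of its UMIs lay in the 31 pigment cells. The corresponding share was 97.4% for Dct, 96.3% for Tyr, 91.5% for Mlana, 87.1% for Pmel and 83.1% for Slc45a2, and 2 of 4 UMIs for Tyrp1. The sums of those genes over all cells are therefore mostly the sums over 31 cells, and fewer cells and less RNA per cell cannot be told apart in them. Once the 53 cells were left out, the log2 change of Pmel was -0.27 ± 0.37 and that of Mitf 0.23 ± 0.12 (edgeR adjusted p = 0.932 and 0.905). Dct, Mlana, Tyr and Slc45a2 then fell under the filter on low counts.

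Sox10, also a marker of glia, had 5.24 and 7.28 CPM in controls against 4.57 and 3.94 CPM in mutants (log2 change -0.59 ± 0.24, SE, edgeR adjusted p = 0.909). Of its UMIs, 14.8% lay in the 31 cells. Otx2 had 23.3 and 7.69 CPM against 19.2 and 19.0 CPM, with control 2 lowest (log2 change 0.24 ± 0.45, SE, edgeR adjusted p = 0.951). Of the 20 melanocyte lineage genes 19 could be tested and 0 were called, with 2 lower and 1 higher at an unadjusted p under 0.05 and a median log2 change of -0.12. Over all genes tested, 2.67% were lower and 2.22% higher at that level. The glia list had 12 genes tested, 0 called and a median of -0.06, and the eye list 6 tested, 0 called and a median of -0.17.

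Within the cells with at least 3 genes, the levels of Dct, Pmel and Tyr did not order the groups. The summed UMIs of Dct came to 3883 and 4409 CPM in controls against 8082 and 2741 CPM in mutants, so that the mutants lay at both ends. Pmel stood at 2104 and 1817 CPM against 4689 and 1623 CPM, and Tyr at 875 and 1248 CPM against 1450 and 592 CPM. The high values of mutant 1 rest on 3 cells, 1 of which held 191 Dct UMIs and had a high doublet score. Per 10000 UMIs, the median cell held 36.8, 46.5, 45.9 and 27.1 UMIs of Dct and 7.96, 12.2, 10.0 and 9.02 of Tyr. Among other genes of the lineage, Kit stood at 642 and 613 CPM in controls against 339 and 241 CPM in mutants. Pax3 stood at 587 and 524 against 494 and 307, and Sox10 at 298 and 288 against 247 and 110. These were lower in both mutants, but rest there on 3 and 5 cells. Those cells held 11 and 11 UMIs of Kit, 16 and 14 of Pax3 and 8 and 5 of Sox10. Slc24a5 stood at 987 and 443 against 1265 and 417, and Ednrb at 326 and 465 against 802 and 241. Gpnmb stood at 317 and 495 against 956 and 285, and Mcoln3 at 354 and 251 against 308 and 197. For these genes the groups overlapped. The share of all genes that separate the groups in these cells is not given. The order of Kit, Pax3 and Sox10 is therefore only a description of few cells. No test was made inside these cells, since mutant 2 had 8 of them by the rule of at least 2 genes and a minimum of 10 per library was set.

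Outside these cells, 6 of the 7 genes were at the level of scattered single molecules. In all cells with fewer than 2 pigment genes, Dct had 33 UMIs (0.300 CPM) against 4367 CPM inside the 31 cells. Pmel had 89 (0.808 against 2176 CPM), Mlana 15 (0.136 against 670 CPM), Tyr 11 (0.0999 against 1050 CPM) and Slc45a2 11 (0.0999 against 184 CPM). Tyrp1 had 0. The summed level of the 6 genes without Mitf was 1.49 and 1.74 CPM in controls against 1.28 and 1.34 CPM in mutants, with a mean of 1.46 ± 0.202 (SD, n = 4).

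Of the UMIs of Dct and Pmel together, Dct made up 64.9%, 70.8%, 63.3% and 62.8% by library in the 31 cells and 34.1%, 20%, 29.6% and 20.7% elsewhere. This is a description, since the same UMIs split the cells and a cell with both genes cannot be elsewhere. By class, the 6 genes summed to 8.47 ± 3.48 CPM in the remaining glia-like cells and 6.62 ± 5.89 in chondrocyte-like cells, against 1.22 ± 0.402 in mesenchyme-like and 0.624 ± 1.25 in macrophage-like cells (mean ± SD, n = 4). In that order these levels rest on 10, 8, 79 and 2 UMIs in 124, 176, 9471 and 278 cells, too few to rank the small classes. Whether free RNA or low expression gave these molecules was not tested.

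Mitf outside the pigment cells varied with cell type. Mast cell-like cells stood at 109, 186, 235 and 119 CPM (162 ± 59.5, SD, n = 4), where 24 of 31 cells held it. Macrophage-like cells stood at 81.1, 77.5, 104 and 137 CPM (99.8 ± 27.2), with 46.0% of cells positive. These classes overlapped across libraries, and in mutant 2 macrophage-like cells (137 CPM) lay above mast cell-like cells (119 CPM). Unnamed cluster 28 stood at 0, 144 and 280 CPM in control 1, control 2 and mutant 1 and had no cell in mutant 2. Mitf is a known regulator in mast cells and in the osteoclast branch of the macrophage lineage. Of the other 6 pigment genes, mast cell-like cells held 0 UMIs and macrophage-like cells 2.

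The remaining named classes lay lower, between 1.83 and 18.6 CPM on average. Glia-like cells with fewer than 2 pigment genes stood at 18.6 ± 9.80 CPM, mesenchyme-like cells at 17.0 ± 2.64 and osteoblast-like cells at 13.7 ± 4.15, and these 3 did not differ beyond their spread. Keratinocyte-like cells stood at 9.24 ± 5.72, nasal epithelium-like cells at 7.40 ± 7.55 and endothelial-like cells at 1.83 ± 1.94 (mean ± SD, n = 4). By number, mesenchyme-like cells held most of the Mitf molecules, 1144 of 1881 UMIs in cells with fewer than 2 pigment genes. They were also most of those cells, 9471 of 13686. Over all 13686 cells Mitf stood at 17.1 CPM, against 421 CPM in the 31 pigment cells.

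**Figure D4:**
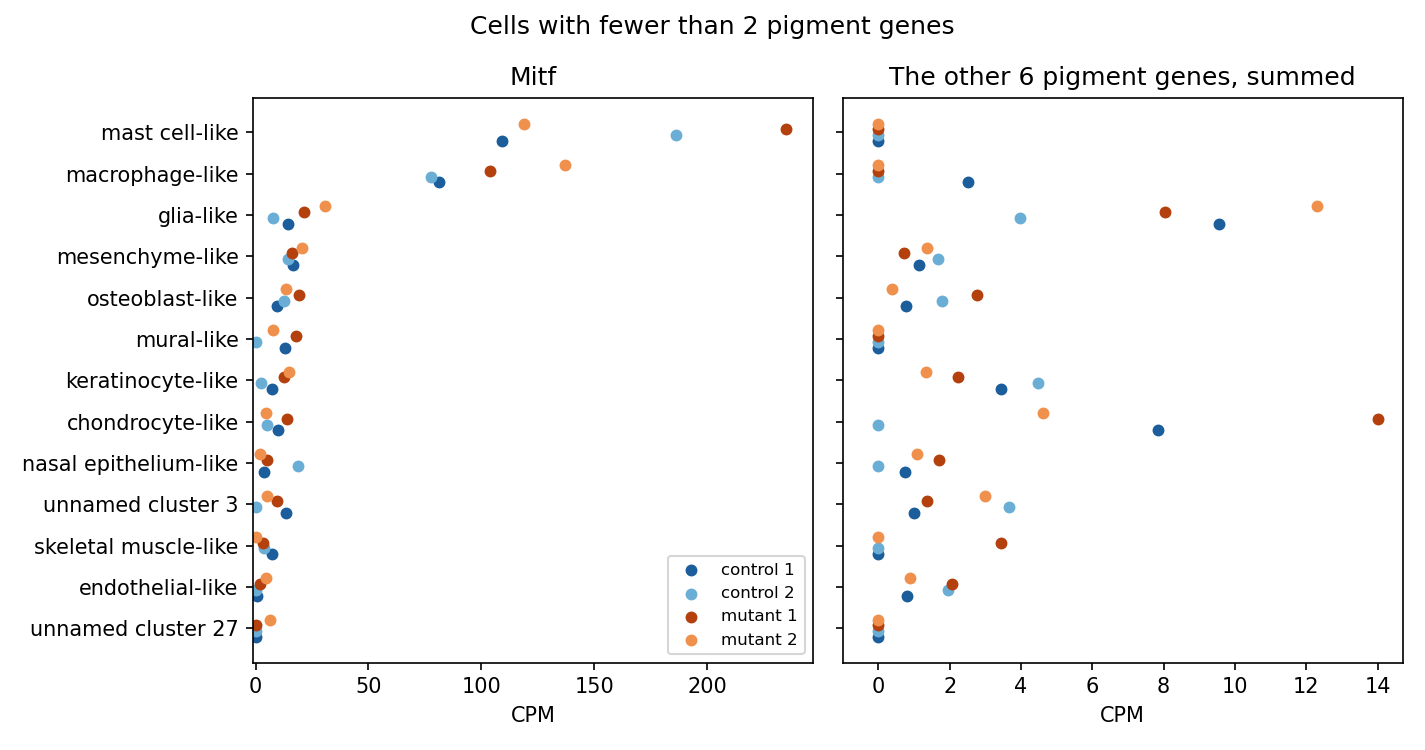
Points give the level of Mitf (left) and of the other 6 pigment genes summed (right) in CPM in each cell class of each library, over cells with fewer than 2 pigment genes. Among the classes drawn, which leave out unnamed cluster 28, Mitf lies high in mast cell-like cells (109 to 235 CPM) and macrophage-like cells (77.5 to 137 CPM), whereas the 6 other genes are at 0 in all 4 libraries of mast cell-like cells.

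Otx2 and Mitf were found together in cells of several clusters, among them a cluster nearly without the other pigment genes. Unnamed cluster 28, of 41 cells, was led by Ttr, a gene of the eye list, with Rmst and Htr2c. It held Otx2 in 32 cells and Mitf in 11, with up to 15 Mitf UMIs in a cell. Both genes were found in 10 of these cells. In its 40 cells with fewer than 2 pigment genes, Mitf had 0 UMIs in control 1, 26 in control 2 and 20 in mutant 1, and mutant 2 had no such cell. The other 6 pigment genes had 0 UMIs in those 40 cells, and the remaining cell, of control 2, held 5 UMIs of Mitf and 1 of Tyrp1. Cells with both Otx2 and Mitf also numbered 21 of 331 in unnamed cluster 3, 6 of 240 in nasal epithelium-like cells and 3 of 918 in keratinocyte-like cells.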

How the data were processed

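Whole noses of embryonic day 14.5 mice were profiled by droplet single-cell RNA sequencing with 10x Genomics 3-prime chemistry after papain dissociation and freezing, per the labels' protocols. The files deposited by the authors are matrices of unnormalized UMI counts. The authors made them with Cell Ranger, version 8.0.1 per the file headers and version 4 per the submitters' processing notes, which also name Seurat 4.3.0 and mm10. In the order control 1, control 2, mutant 1, mutant 2, barcodes numbered 4566, 2827, 3624 and 4846, with total depths of 35887490, 20170229, 30040144 and 27646940 UMIs, and any pair shared 3 to 5 barcodes. After the filter 4075, 2474, 2995 and 4195 cells remained, at a median of 7033, 6878.5, 8549 and 5282 UMIs.

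The automatic Scrublet threshold marked 0 to 3 cells per library and so had not worked. Doublets were kept, and the cells with the highest scores (0.8% per 1000 barcodes) were removed as an alternative. Cells were clustered in scanpy 1.11.5 on 1990 variable genes without the 7 pigment genes (40 components, 20 neighbours, Leiden resolution 1), giving 31 clusters. A cluster was named, as X-like, from at least 3 listed markers found in at least 20% of its cells at 2 times the level of the others, and clusters 3, 27, 28 and 30 stayed unnamed. Parts of the naming rule were set after seeing the clusters' leading genes. UMIs were summed per library and tested with edgeR 4.0.16 (TMM, filterByExpr, quasi-likelihood) in R 4.3.3, adjusted by Benjamini-Hochberg over all genes at 0.05, with DESeq2 1.42.0 as an alternative, after testing on simulated data. Standard errors are the log2 change over the square root of F.

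The text names the 7 genes, Sox10, Otx2, Yap1 and Wwtr1, up to 6 genes of each list by the share of cells that held them, genes of those lists at 0, and the genes most like the members by r over clusters (10 genes) or by ratio (15 genes, in at least 20% of the cells and 3 libraries). Some listed genes are not reported here. The members and lists were chosen with earlier results of these data known. Gene positions were matched by identifier to GENCODE M21, and promoters come from RefSeq on GRCm38.p6.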

Additional observations from a re-analysis of the deposited data

How the results depend on the processing

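The difference in the share of cells with at least 2 pigment genes kept its sign in 11 of 13 alternatives. It was 0.794 percentage points, higher in mutants, with at least 1 gene required (11.6%, 10.5%, 13.1% and 10.6% for control 1, control 2, mutant 1 and mutant 2), and 0.00258 with exactly 2 genes, an alternative added after seeing the data. Leaving out 1 library at a time gave -0.368 to -0.163, and -0.375 to -0.160 for at least 3 genes. Such omissions cannot turn the sign where both controls lie above both mutants, as here and for the Sox10-based shares below. Thinning each cell to 2000 UMIs gave 0.279%, 0.422%, 0.105% and 0.10%. The same omissions gave -37.7 to -14.9 for the Sox10 share, -16.3 to -8.62 for pigment cells among Sox10-carrying cells, and -8.68 to 0.410 for the Otx2 share, which turned without mutant 2 and was 0 with at least 3 genes required. The summed level of the 7 genes in the other cells was 16.5 and 17.8 CPM in controls against 18.8 and 21.3 CPM in mutants, a difference of 2.90 CPM (1.67 to 4.13 with 1 library left out), and -0.301 CPM without Mitf.

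No gene passed the threshold in the main edgeR test, 10 did without the filter on low counts, 30 with DESeq2, 410 without control 1 and 1 without control 2 (0 to 410 over all omissions). With 1 library left out, the log2 changes ranged from -2.17 to -0.81 for Dct, -1.51 to -0.57 for Pmel, -1.73 to -1.15 for Mlana, -2.71 to -1.04 for Tyr, -1.88 to -0.42 for Slc45a2, -0.83 to -0.32 for Sox10, -0.02 to 0.24 for Mitf and -0.32 to 1.26 for Otx2. Mitf turned to -0.02 without control 1. Otx2 was 1.26 without control 1 (edgeR adjusted p = 0.0174) and turned to -0.32 without control 2 (0.889). The lone library of a group is then assumed to vary like the other group. The cause was not tested.

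Same-numbered libraries share only a number: their deviations from the group means had a correlation of -0.035 across 18080 genes, which are not replicates. With the replicate number as a block, 0 genes were called, and the log2 changes were -1.53 for Dct, -1.90 for Tyr, -1.44 for Mlana, -1.06 for Pmel, -1.17 for Slc45a2, 0.11 for Mitf, -0.57 for Sox10 and 0.42 for Otx2.

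The limits are few pigment cells (3 to 12 per library with at least 3 genes) and 2 libraries a group, where no exact permutation test can go below 0.33.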

Other observations

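Among the barcodes left out by the filter on genes and mitochondrial UMIs (491, 353, 629 and 651 for control 1, control 2, mutant 1 and mutant 2), 2, 0, 0 and 3 held at least 2 pigment genes, and 1, 0, 0 and 1 held at least 3.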
